A study of Mus musculus with 6 samples.

Results

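Crypt-base stem cell genes other than Lgr5 are described here across cells of mouse small intestinal organoids: Olfm4, Gkn3, Clca3b, Ascl2, Smoc2, Rgmb, Cdca7 and Mex3a. They were taken by symbol from the gene tables of all 6 single-cell RNA-seq libraries, where each symbol stood on 1 row, so the set holds 8 of 32285 genes. All libraries were made on day 3 of culture in a medium with EGF, Noggin and R-spondin, from organoid stocks first derived from 10-week-old adult mice. WT organoids were kept with vehicle (WT -EIPA; DMSO by label, 2 libraries) or with 5 µM EIPA, a small molecule inhibitor of sodium-proton exchange (WT +EIPA, 2 libraries). The CRISPR line was made from WT organoids by lentivirus. It carried a doxycycline (Dox)-inducible Cas9 with GFP and a guide RNA, and was grown from single clones. It gave 1 library without Dox (CRISPR -Dox) and 1 with 2 µg/mL Dox (CRISPR +Dox). Live cells were sorted for every library, and for CRISPR +Dox only GFP-positive cells. The study asked whether intracellular pH acts on intestinal stem cells and their lineages. The comparisons below ask where these 8 genes were expressed, whether they occurred in the same cells, and whether their levels differed with EIPA or Dox.

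The epithelium of the small intestine is renewed by crypt base columnar cells, the Lgr5-positive intestinal stem cells (ISCs) that sit between Paneth cells at the bottom of each crypt. Wnt and R-spondin signals hold cells in this state, and cells that leave the base divide as progenitors before they become absorptive or secretory cells. The 8 genes belong to expression signatures of these stem cells, but their products do different work. Olfm4, Gkn3 and Smoc2 encode secreted proteins: olfactomedin 4, a gastrokine and a calcium-binding matricellular protein. Clca3b belongs to the family of chloride channel accessory proteins. Rgmb encodes a membrane-anchored co-receptor for bone morphogenetic proteins. Ascl2 encodes a basic helix-loop-helix transcription factor that is a Wnt target and is needed for the stem cell state. Cdca7 is induced by MYC and E2F and acts in chromatin remodelling with HELLS. Mex3a encodes an RNA-binding protein known to mark a slowly dividing subset of Lgr5-positive cells.

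The genes lie on 6 chromosomes of GRCm38, with Clca3b and Mex3a both on chromosome 3 and Smoc2 and Rgmb both on chromosome 17. Ascl2 is the shortest, 2.44 kb on the minus strand at chr7:142966829-142969264, and Smoc2 the longest, 125 kb on the plus strand at chr17:14279506-14404790. In the GENCODE annotation Olfm4 overlaps Gm6999 on its own strand, and 4.47% of the 31-base words of its transcripts also occur in that gene. For Clca3b the share found in another gene was 15.1%, of which 13.1% in its neighbour in the family, Clca3a2, so its counts may miss reads that the counting could not place. It was 1.92% for Cdca7 and at most 0.331% for the other members. The 250 bases before the RefSeq start (GRCm38.p6) are shown for Ascl2, Olfm4 and Gkn3, since Ascl2 was the member whose level differed most between conditions in proliferating-like cells and proteins of its class bind the E-box, written CANNTG. Capitals mark the E-boxes.
Ascl2, chr7:142969265-142969514, minus strand: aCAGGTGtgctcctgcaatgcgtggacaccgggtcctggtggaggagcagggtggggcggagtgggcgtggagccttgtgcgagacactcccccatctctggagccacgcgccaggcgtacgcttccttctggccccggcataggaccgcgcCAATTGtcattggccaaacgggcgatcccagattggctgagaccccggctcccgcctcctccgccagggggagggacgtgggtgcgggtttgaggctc
Olfm4, chr14:80000052-80000301, plus strand: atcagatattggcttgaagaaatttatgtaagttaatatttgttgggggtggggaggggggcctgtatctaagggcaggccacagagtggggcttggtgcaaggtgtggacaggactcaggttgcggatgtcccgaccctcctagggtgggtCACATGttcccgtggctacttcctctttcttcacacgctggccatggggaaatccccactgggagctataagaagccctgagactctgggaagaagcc
Gkn3, chr6:87388936-87389185, minus strand: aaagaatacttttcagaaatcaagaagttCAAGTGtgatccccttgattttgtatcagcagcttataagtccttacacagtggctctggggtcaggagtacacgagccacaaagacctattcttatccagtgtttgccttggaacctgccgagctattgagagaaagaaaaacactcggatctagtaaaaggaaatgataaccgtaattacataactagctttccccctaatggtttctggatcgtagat

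Ascl2 held 2 E-boxes, 249 and 98 bases before its start, Olfm4 1 at 98 bases and Gkn3 1 at 221 bases, each position counted to the first letter of the motif. RefSeq had such a window for 7 of the 8 genes, all but Smoc2. Rgmb, with 3 annotated starts, held 2 E-boxes before the first of them, and Clca3b, Cdca7 and Mex3a held none. On either strand, 66.2% of 32851 promoters of that length held an E-box, so its presence is common. The core of the site of the Wnt effectors TCF and LEF, CTTTGA, was in none of the members' windows and in 13.8% of all promoters, and TATAAA was in 2 of the 3 windows of Rgmb and in 12.4% of all. A match is only a run of letters, and its absence from these windows says nothing of the factor.

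Each library held between 12083 and 18211 kept cells, 161670015 to 239368573 unique molecular identifiers (UMIs), and a median of 11478 to 17020 UMIs a cell, the highest in CRISPR +Dox. Levels are given as CPM: the UMIs of a gene summed over the cells of a population in 1 library, per 1000000 UMIs of all genes there. Any 2 libraries shared between 33 and 78 cell barcodes, at most 0.563% of the smaller one. Clusters were built and named with the 8 members left out, and a class is called "-like" since only marker genes stand behind its name. The 10043 ISC-like cells had 11 of 12 ISC markers above the other cells and a sum of 1053 CPM over them. Proliferating-like and Paneth-like cells had 8 of 12 raised each, with sums of 846 and 841 CPM, and Goblet-like cells 6 with 857 CPM. Markers of immune cells summed to at most 1.56 CPM in a library, those of mesenchyme to 0.121 and those of endothelium to 0.460. Enterocyte markers summed to 8502 and 4731 CPM over all kept cells of WT -EIPA and to 15025 and 13270 CPM in WT +EIPA, and Paneth markers to 7064 and 12129 against 9847 and 24444 CPM. The class of enteroendocrine cells (EEC-like) was weakly marked in the CRISPR libraries. Its 16 markers summed to 3683 and 4606 CPM in the EEC-like cells there, with 4 and 1 of them at 0, against 31908 to 38638 CPM in WT. Tuft-like cells numbered 74 and 58 in the CRISPR libraries and 181 to 408 in WT.

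By the mean over the 6 libraries, 6 of the 8 genes were highest in ISC-like cells, and Ascl2 and Mex3a were not. Olfm4 stood at 3499 and 4646 CPM in ISC-like cells of WT -EIPA, 3125 and 3438 in WT +EIPA, 4757 in CRISPR -Dox and 5117 in CRISPR +Dox. Its mean was 4097 ± 838 CPM (SD, n = 6), against 1981 ± 614 in proliferating-like cells and 295 ± 97.7 in enterocyte-like cells. The ISC-like and proliferating-like ranges did not overlap. Gkn3 was at 83.1 ± 42.9 CPM in ISC-like and 30.5 ± 15.1 in proliferating-like cells, and the order held in all 6 libraries although the ranges overlapped. In WT its level was higher in replicate 2 than in replicate 1 of both groups: 79.5 and 146.7 CPM in WT -EIPA replicates 1 and 2, 54.8 and 123.8 in WT +EIPA, 41.0 and 52.9 in the CRISPR libraries.

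**Figure D1:**
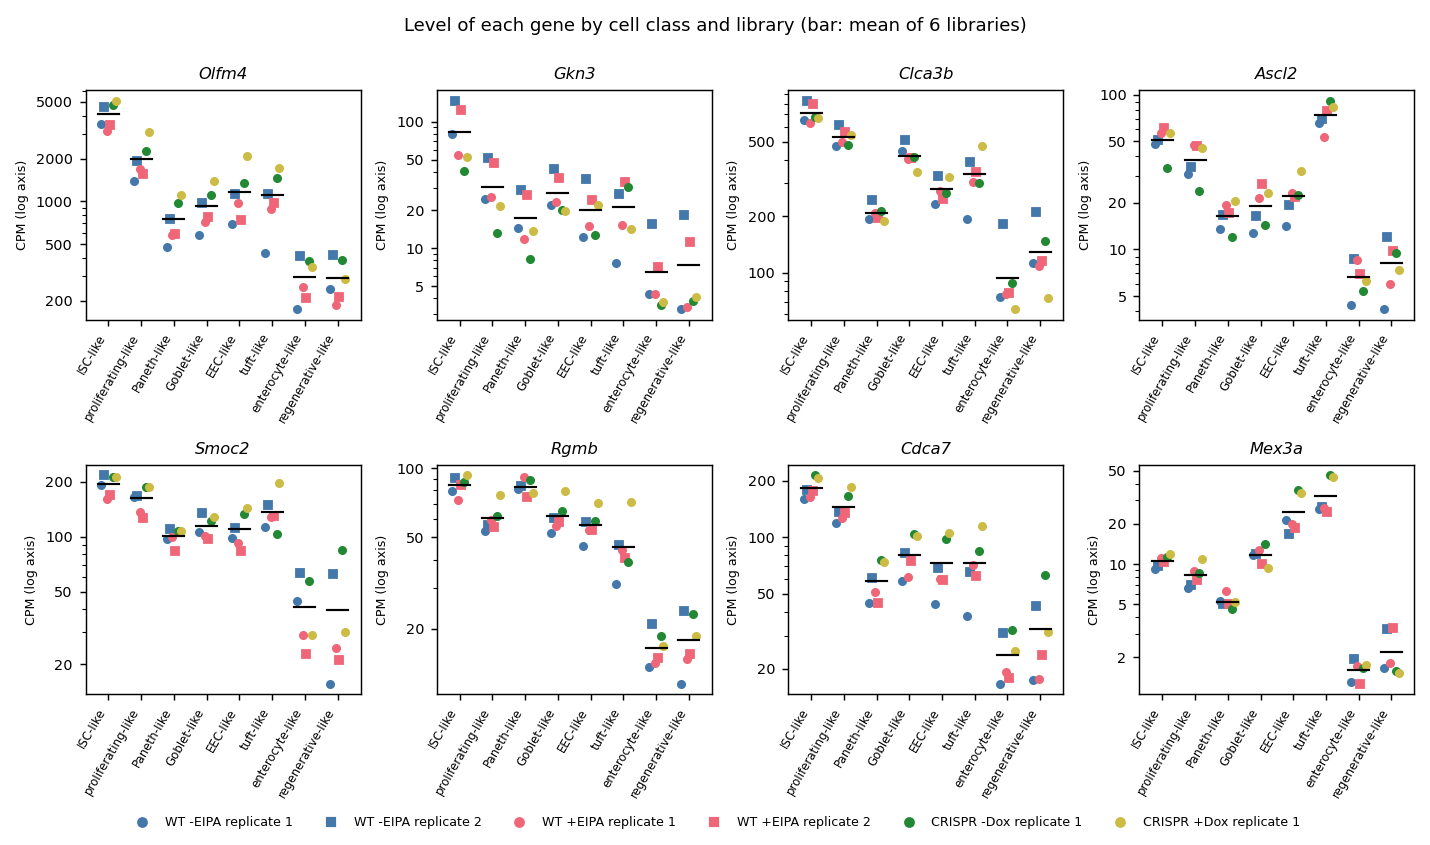
Each panel plots the CPM of 1 gene (log axis) in 8 cell classes, with a point per library and a bar at the mean of 6. Olfm4, Gkn3, Clca3b, Smoc2 and Cdca7 are highest in ISC-like cells, Rgmb is as high in Paneth-like cells, and Ascl2 and Mex3a are highest in tuft-like cells.

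Smoc2, Cdca7 and Clca3b lay closer together in ISC-like and proliferating-like cells than Olfm4 and Gkn3 did. Smoc2 was at 194 ± 23.9 CPM in ISC-like, 162 ± 25.3 in proliferating-like and 136 ± 33.3 in tuft-like cells (n = 6 each), with overlapping ranges between neighbours. Cdca7 was at 183 ± 22.6 and 144 ± 25.8 CPM in the first 2 classes, and at 80.4 ± 19.5 CPM in Goblet-like cells, below both with no overlap of ranges. Within proliferating-like cells, cluster 5, led by Hells, Mcm4 and Mcm3, had Cdca7 at 187 ± 23.5 CPM, as high as ISC-like cells. Clca3b had the order ISC-like (711 ± 81.3 CPM), proliferating-like (529 ± 55.8) and Goblet-like (421 ± 56.0), and ISC-like cells stood above proliferating-like cells in 6 of 6 libraries with no overlap. For these 3 genes enterocyte-like cells had 41.0, 23.6 and 94.0 CPM in the same order of naming, Smoc2, Cdca7 and Clca3b. Mean levels in ISC-like cells were between 4.73 times (Smoc2) and 13.9 times (Olfm4) those in enterocyte-like cells.

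In the main clusters Rgmb did not separate ISC-like from Paneth-like cells. ISC-like cells had 84.4 ± 7.47 CPM and Paneth-like cells 82.91 ± 6.602, and ISC-like was the higher in 3 of 6 libraries. Paneth-like cells led, at 90.7 against 85.2 CPM, once the cells with the highest doublet scores were removed. ISC-like cells led all classes without the Harmony correction of the clusters, at 97.0 CPM, and with clusters at resolution 1.2, at 104.8 CPM. Lgr5 itself was at 118 ± 12.6 CPM in ISC-like and 67.5 ± 9.56 in Paneth-like cells. Both Goblet-like (61.9 ± 9.71 CPM) and proliferating-like cells (60.6 ± 8.49) had lower Rgmb, and they did not differ from each other beyond their spread.

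Ascl2 was highest in tuft-like cells, the chemosensory cells of the epithelium. The tuft-like values were 65.9 and 69.4 CPM in WT -EIPA, 53.0 and 78.5 in WT +EIPA, 91.4 in CRISPR -Dox and 83.3 in CRISPR +Dox. Those of ISC-like cells were 47.8, 50.7, 56.3, 61.0, 33.5 and 56.8 CPM in the same order, so tuft-like was the higher in 5 of 6 libraries, all but WT +EIPA replicate 1. Tuft-like cells hold few of its transcripts all the same: a median of 2.01% of the Ascl2 UMIs of a library, against 18.4% in ISC-like and 53.9% in proliferating-like cells. The ISC markers summed to 638 CPM in tuft-like and 1053 in ISC-like cells, and 5 of 12 of them were raised in the former. All 11 tuft markers were raised in tuft-like cells and none in ISC-like cells.

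Mex3a was also highest in tuft-like cells, at 32.5 ± 10.3 CPM, and next in EEC-like cells at 24.5 ± 8.38, with 10.6 ± 1.01 in ISC-like and 11.7 ± 1.75 in Goblet-like cells (SD, n = 6 each). The CRISPR libraries were the higher ones: tuft-like cells had 46.4 CPM in CRISPR -Dox and 45.2 in CRISPR +Dox against 24.8 to 26.6 in the 4 WT libraries, and EEC-like cells 36.2 and 34.1 against 16.9 to 21.6. EEC-like clusters 13 and 16 differed less between these libraries than the class did. Cluster 13 had 47.9 and 44.4 CPM against 31.4 to 43.6, and cluster 16 had 18.5 and 13.8 against 9.84 to 14.3. Cluster 18, the lowest in Mex3a, did not: it had 5.91 and 14.0 CPM against 2.72 to 7.69. EEC-like cells stood above Goblet-like cells with no overlap of ranges. Within EEC-like cells its level ran from 39.4 ± 6.74 CPM in cluster 13, led by Ghrl, Sst and Neurog3, the last of these a factor of enteroendocrine progenitors, to 13.7 ± 2.87 in cluster 16, led by Chgb, Chga and Tac1, and 6.58 ± 4.00 in cluster 18, led by Gip, Cck and Gcg. Within proliferating-like cells, cluster 10, led by Cenpf, Ube2c and Cenpa, had Mex3a at 15.7 ± 2.49 CPM (12.2 to 18.7). ISC-like cells ran from 9.18 to 11.8 CPM, below it with no overlap of ranges. Few cells carried a Mex3a UMI. After each cell was thinned to 2000 UMIs, the share was 1.45 to 2.71% of ISC-like cells, 3.89 to 13.9% of tuft-like cells and 0.147 to 0.266% of enterocyte-like cells.

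Proliferating-like cells, the class with the most cells in 5 of 6 libraries, held the largest share of the transcripts of each gene. They held a median over libraries of 41.3% (Mex3a) to 54.1% (Cdca7) of the UMIs of each gene. ISC-like cells held 13.5% (Mex3a) to 29.5% (Gkn3) and enterocyte-like cells 4.23% (Olfm4) to 6.55% (Rgmb and Smoc2). Such a share grows with the number and depth of the cells in a class. Mean levels in proliferating-like cells were 8.25 CPM for Mex3a and 144 for Cdca7, against 7.09 and 97.7 over all kept cells. By the Pearson correlation of log2(CPM + 1) over 48 class-by-library sums, among 9522 genes with the members left out, the genes most like Olfm4 were Nr2e3 (r = 0.936) and Rgcc (0.922). For Rgmb they were Lrig1 (0.948), a negative regulator of ErbB receptors that marks stem cells, and Lgr5 (0.946). For Mex3a they were Tead2 (0.971) and Tmem132a (0.969), for Smoc2 Etv6 (0.967) and Scml4 (0.941), for Clca3b Nmral1 (0.958) and Exosc5 (0.941), and for Cdca7 Afap1l1 (0.942) and Mcm7 (0.942). For Gkn3 they were Ptrh2 (0.902) and Snhg4 (0.894), and for Ascl2 Nrtn (0.906) and Serf1 (0.899). Among the members, Olfm4 and Cdca7 were most alike (0.968) and Gkn3 and Mex3a least (0.518). The 48 points share libraries and classes, and these values describe the pattern only.

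In single cells the 8 genes were found together more often than independent genes would be. Each cell was thinned to 2000 UMIs, and the share of cells with both genes was divided by the product of their single shares in that library. Over all kept cells the ratio was above 1 in 6 of 6 libraries for 28 of 28 pairs, with medians from 1.26 (Smoc2 and Mex3a) to 2.20 (Gkn3 and Ascl2). Gkn3 had the highest ratios also with Rgmb (1.97), Cdca7 (1.93) and Olfm4 (1.83). With Lgr5 the medians ran from 1.56 (Smoc2) to 2.31 (Gkn3). At 1000 UMIs a cell 25 of the 28 pairs kept a ratio above 1 in every library. The members were chosen as stem cell genes, and all had lower means in enterocyte-like than in ISC-like cells. Ratios above 1 over mixed classes were thus likely from the choice of genes, and pairs of other genes were not measured.

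**Figure D2:**
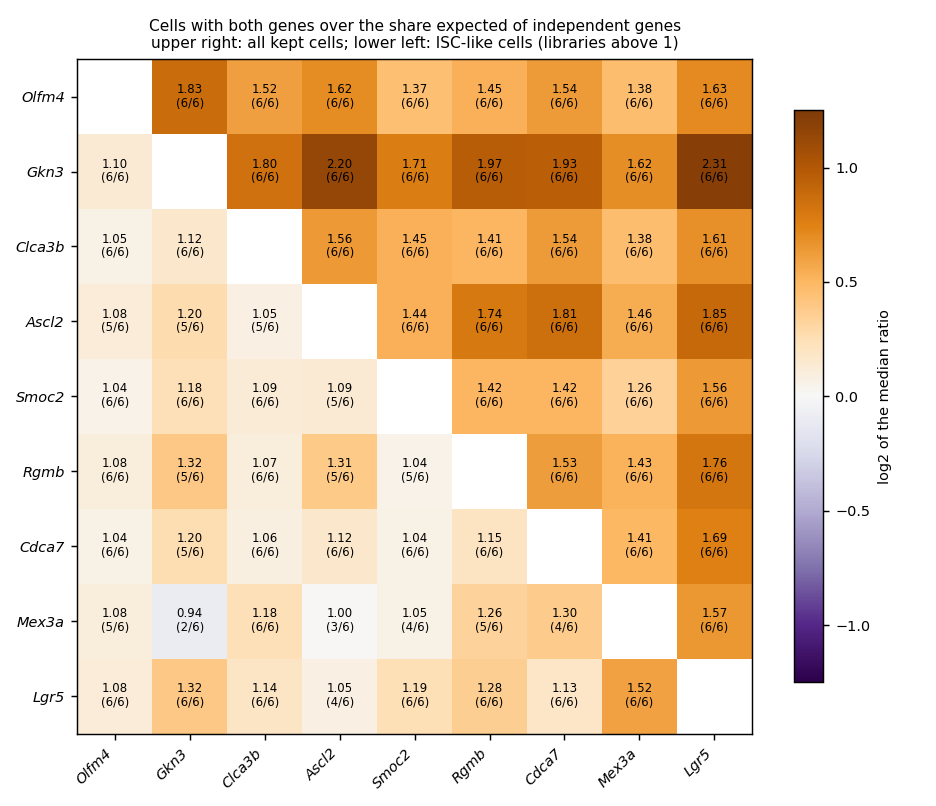
Each square gives the median over 6 libraries of the share of cells with both genes over the share expected of independent genes, on a log2 colour scale, with the number of libraries above 1. All kept cells are in the upper right, from 1.26 to 2.20 between members, and ISC-like cells in the lower left, from 0.94 to 1.32.

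In ISC-like cells a gene found in most cells leaves little room for a ratio above 1, so pairs with Olfm4 or Clca3b, found in 85.5 to 93.8% and 63.4 to 76.8% of them after thinning, are not set against their ratios over all cells. Gkn3 with Ascl2, both found in fewer cells, was at 1.205 there against 2.20 over all cells. Among these cells 14 of 28 pairs were above 1 in all 6 libraries, the median of the pairs was 1.08, and none was below 1 in all. Of the pairs with neither Olfm4 nor Clca3b, only Gkn3 with Smoc2, and Cdca7 with Ascl2, Smoc2 or Rgmb, were above 1 in all 6. The highest were Gkn3 with Rgmb (1.32, above 1 in 5 of 6 libraries) and Ascl2 with Rgmb (1.31, 5 of 6). Gkn3 with Mex3a was at 0.94, resting on 1 to 16 cells a library. Paneth markers summed to between 1109 and 3929 CPM in ISC-like cells of the 6 libraries and enterocyte markers to between 863 and 1990 CPM, and the part of such RNA or of doublets in the joint counts was not tested. With the cells of the highest doublet scores removed, 28 of 28 pairs over all cells and 13 of 28 in ISC-like cells were above 1 in every library.

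A thinned ISC-like cell carried on average 2.43 to 2.91 of the 8 genes, a proliferating-like cell 1.84 to 2.29 and an enterocyte-like cell 0.385 to 0.828, over the 6 libraries. At least 3 members were found in 47.0 to 62.3% of ISC-like cells and in 1.76 to 5.93% of enterocyte-like cells, and the most in a single cell was 8, in WT -EIPA replicate 2. Olfm4 was found in 85.5 to 93.8% of ISC-like and 17.2 to 32.8% of enterocyte-like cells, Clca3b in 63.4 to 76.8% and 7.57 to 24.4%, and Gkn3 in 7.85 to 24.95% and 0.358 to 2.17%. Without thinning Olfm4 was found in 95.2 to 99.2% of ISC-like and 50.6 to 76.9% of enterocyte-like cells. The unthinned medians were 9712 to 14232 UMIs in ISC-like and 11191 to 16899 UMIs in enterocyte-like cells. The 4 enterocyte-like clusters had mean Olfm4 levels from 173 to 608 CPM, and no background share from free RNA was measured.

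Before thinning, cells with an Lgr5 UMI had a higher level of every member than cells without. This held both among cells with a UMI of Mki67 or Top2a and among cells without one. Cells were split by an Lgr5 UMI and by a UMI of Mki67 or Top2a, genes used in mitosis, without use of clusters. Among cells with a Mki67 or Top2a UMI, the CPM in Lgr5-positive over Lgr5-negative cells had medians from 1.53 (Smoc2) to 3.29 (Olfm4), and all 8 genes were above 1 in 6 of 6 libraries. Among cells without one, the medians ran from 2.84 (Smoc2) to 7.78 (Olfm4), again above 1 in 6 of 6 libraries. A UMI of any gene is more often seen in a deeper cell. With every cell thinned to 2000 UMIs the ratios were smaller, 2.10 and 3.60 for Olfm4. Mex3a then had a ratio of 0.694 in 1 library among cells with a Mki67 or Top2a UMI.

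**Figure D3:**
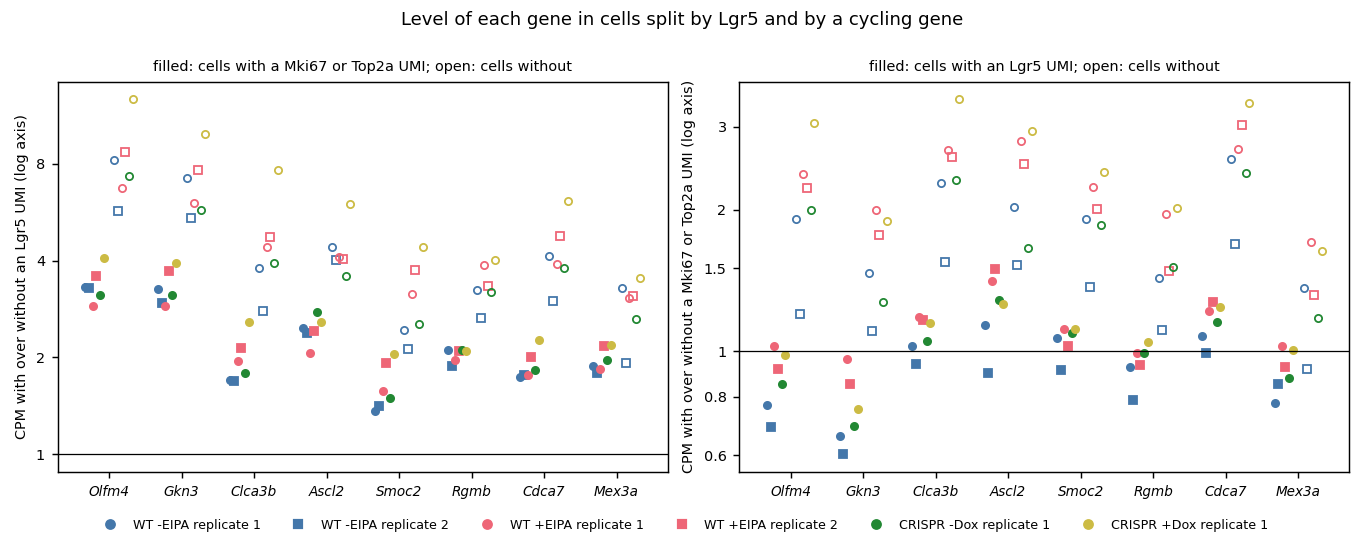
The left panel plots, for each gene and library, the CPM in cells with an Lgr5 UMI over that in cells without, and the right panel the CPM in cells with a Mki67 or Top2a UMI over that in cells without, both on log axes. All points in the left panel lie above 1, and on the right Gkn3 lies below 1 among Lgr5-positive cells and above 1 among Lgr5-negative cells.

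Among Lgr5-positive cells the members differed in their ratio between cells with and without a Mki67 or Top2a UMI. A cell without one may still be cycling, and these cells were shallower, with medians of 9349 to 13275 UMIs against 14310 to 22371. Gkn3 was lower in Lgr5-positive cells with a Mki67 or Top2a UMI than in those without in 6 of 6 libraries, at a median ratio of 0.723 (0.603 to 0.961). Olfm4 was at 0.884 (below 1 in 5 of 6 libraries), Mex3a at 0.901 (below 1 in 4) and Rgmb at 0.963 (below 1 in 5). Ascl2 (1.27), Cdca7 (1.19), Clca3b (1.10) and Smoc2 (1.08) were above 1 in 5 of 6 libraries, all but WT -EIPA replicate 2. With every cell thinned to 2000 UMIs, a check added after the data were seen, Gkn3 was at 0.797 and still below 1 in 6 of 6 libraries, Ascl2 at 1.203 and above 1 in 5, and Clca3b at 1.07 and above 1 in 6. Rgmb (1.03) and Mex3a (1.05) then changed sides, and Olfm4 was below 1 in 4 of 6. Smoc2 (1.09) and Cdca7 (1.06) were above 1 in 4 of 6. Among Lgr5-negative cells all members but Mex3a were above 1 in 6 of 6 libraries, from 1.495 (Rgmb) to 2.63 (Cdca7), and Mex3a was at 1.34, above 1 in 5.

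With EIPA, none of the 8 genes passed edgeR's test without a replicate block in the populations compared, and some passed with the block. Without the block no gene at all was called, so that count says nothing particular of the members. WT +EIPA and WT -EIPA (n = 2 libraries each) were compared by edgeR's quasi-likelihood test on summed UMIs, and the number called at an adjusted p under 0.05 was 0 of 8 over all kept cells (0% of 15890 genes), 0 of 8 in ISC-like cells (0% of 11828) and 0 of 8 in proliferating-like cells (0% of 13646). At an unadjusted p under 0.05 there were 2 of 8, 1 of 8 and 3 of 8 members, against 10.1%, 3.47% and 4.75% of all genes. DESeq2 called 1, 0 and 1 member, where it called 3.66%, 0.178% and 0.777% of all genes. The same numbers of the 2 WT groups came from the same experiment. With the replicate as a block edgeR called 1, 4 and 2 members, where it called 5.28%, 6.14% and 4.53% of all genes. The 4 in ISC-like cells were Olfm4, Gkn3, Ascl2 and Smoc2. The fit with the block leaves 1 residual degree of freedom and the fit without it 2. The p-values of both thus rest in large part on the spread shared across genes. The median log2 fold change of the members was -0.17 over all kept cells, -0.01 in ISC-like and 0.07 in proliferating-like cells, beside 0.00 over all genes tested in each. In these sums fewer cells of a type and less RNA per cell cannot be told apart over all kept cells, and the enterocyte markers given above were higher in both WT +EIPA libraries. Their part in the result was not tested.

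**Figure D4:**
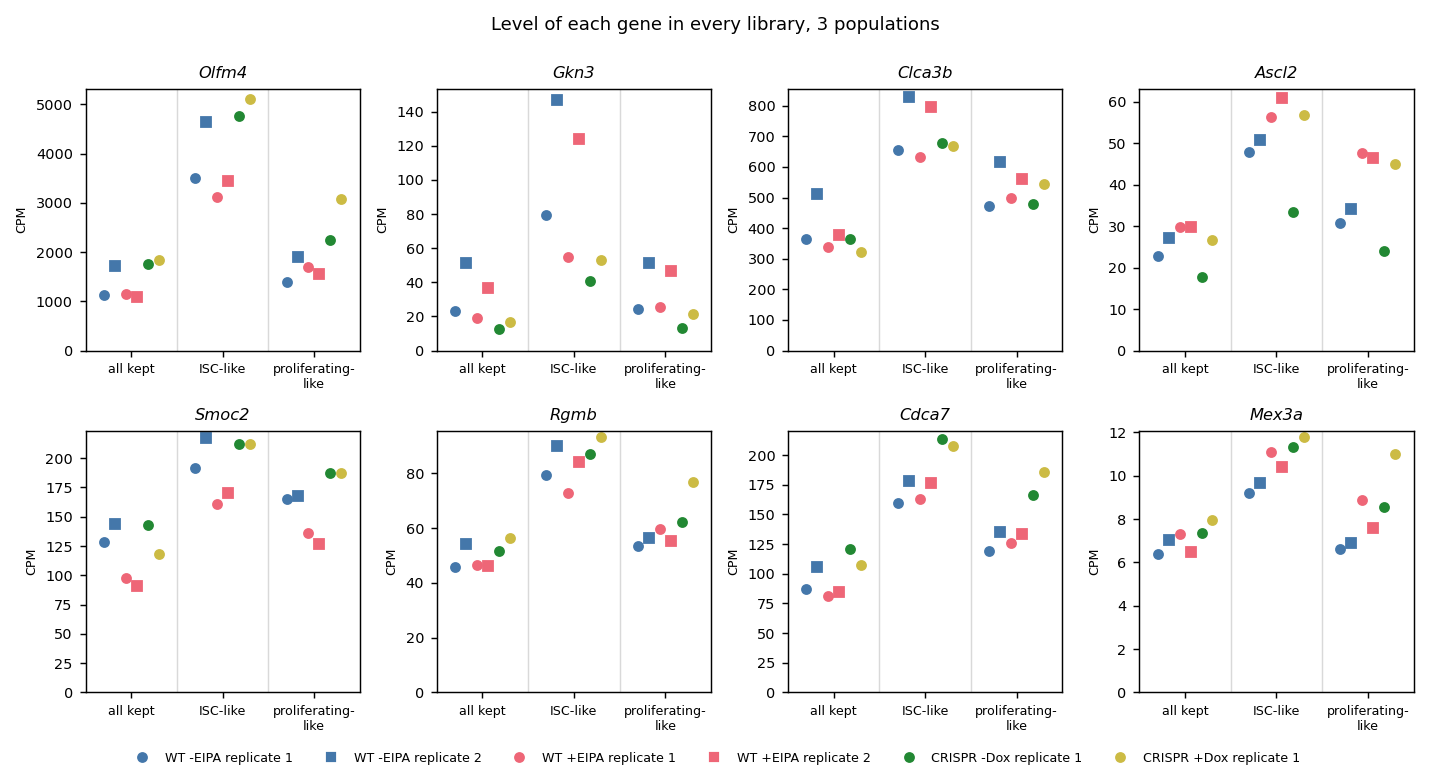
Each panel plots the CPM of 1 gene in the 6 libraries over all kept, ISC-like and proliferating-like cells, from 0, with circles for replicate 1 and squares for replicate 2. The Ascl2 points of both WT +EIPA libraries lie above both WT -EIPA points, and the Smoc2 points below them, in each population.

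Ascl2 was higher in both WT +EIPA libraries than in both WT -EIPA libraries in each of the 3 populations. In proliferating-like cells it stood at 30.8 and 34.2 CPM in WT -EIPA and at 47.6 and 46.3 in WT +EIPA. The groups did not overlap, as for 8.3% of all genes in that direction. The log2 fold change was 0.59 ± 0.08 (SE), with an adjusted p of 0.302 by edgeR. It was 2.19e-04 by DESeq2, 0.00524 with no filter on low counts and 7.83e-04 with the replicate as a block, and from 0.298 to 0.801 under the other alternatives. Enterocyte markers in proliferating-like cells summed to 1177 and 1016 CPM in WT -EIPA and to 1436 and 1294 in WT +EIPA. Their part in the result was not tested. Over all kept cells the Ascl2 values were 22.8 and 27.2 against 29.7 and 29.9 CPM (log2 fold change 0.34 ± 0.11, adjusted p = 0.433), where 13.5% of genes were higher without overlap. In ISC-like cells they were 47.8 and 50.7 against 56.3 and 61.0 CPM (0.32 ± 0.10, adjusted p = 1.00, 7.72e-05 with the block and 0.477 to 1.00 under the other alternatives), where 7.27% were. Without the Harmony correction of the clusters the ISC-like value turned to -0.30 ± 0.25, with 94 and 62 WT +EIPA cells left in that class.

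Smoc2 was lower in both WT +EIPA libraries in each of the 3 populations. Over all kept cells it stood at 129 and 144 CPM in WT -EIPA and at 97.8 and 90.5 in WT +EIPA, a log2 fold change of -0.45 ± 0.09 with an adjusted p of 0.272 by edgeR. The adjusted p was 0.00288 by DESeq2 and 0.0399 with the block, and from 0.121 to 0.998 under the other alternatives, and 33.6% of all genes were lower without overlap. In ISC-like cells the values were 192 and 217 against 161 and 170 CPM (-0.24 ± 0.10, adjusted p = 1.00, 1.83e-04 with the block and 0.824 to 1.00 under the other alternatives), where 26.7% were. In proliferating-like cells they were 165 and 168 against 136 and 127 CPM (-0.27 ± 0.07, adjusted p = 0.828, 0.0120 with the block and 0.226 to 1.00 under the others), where 27.4% were.

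Olfm4 and Gkn3, encoding secreted products, did not pass edgeR's test without the block in any of the 3 populations. Olfm4 over all kept cells was at 1134 and 1709 CPM in WT -EIPA and at 1145 and 1098 in WT +EIPA (log2 fold change -0.26 ± 0.22, adjusted p = 0.778), so the groups overlapped. Without WT -EIPA replicate 2 the value was 0.08. In ISC-like cells it was -0.24 ± 0.15 with both WT +EIPA libraries lower, adjusted p = 1.00, 7.01e-05 with the block and 0.359 to 1.00 under the other alternatives. Of all genes in ISC-like cells, 26.7% were lower without overlap. Gkn3 was at 23.0 and 51.3 CPM in WT -EIPA and at 18.9 and 36.8 in WT +EIPA over all kept cells. The replicates of a group differed by more than the groups did, and the log2 fold change was -0.33 ± 0.51, although within both pairs of one experiment Gkn3 was lower with EIPA, as it was in ISC-like cells. In ISC-like cells Gkn3 was at -0.27 ± 0.44, with an adjusted p of 1.94e-05 once the replicate was a block and 0.769 to 1.00 under the other alternatives. Without WT -EIPA replicate 2 the Gkn3 value was 0.25 in ISC-like and 0.38 over all kept cells, and without WT +EIPA replicate 1 it was 0.21 and 0.10. Without WT +EIPA replicate 2 it was -1.002 and -0.93, and without WT -EIPA replicate 1 it was -0.64 and -0.80.

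Mex3a was at 6.600 and 6.914 CPM in WT -EIPA and at 8.87 and 7.57 in WT +EIPA in proliferating-like cells, a log2 fold change of 0.34 ± 0.11 with an adjusted p of 0.971. Its groups also did not overlap in ISC-like cells (9.18 and 9.67 against 11.1 and 10.4 CPM). Of all genes, 8.3% were higher without overlap in proliferating-like and 7.27% in ISC-like cells. Clca3b, Rgmb and Cdca7 had log2 fold changes between -0.21 and 0.13 in the 3 populations, and their WT groups overlapped in all but Cdca7 over all kept cells (87.0 and 105 against 81.4 and 85.0 CPM). There 33.6% of all genes were lower without overlap.

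**Figure D5:**
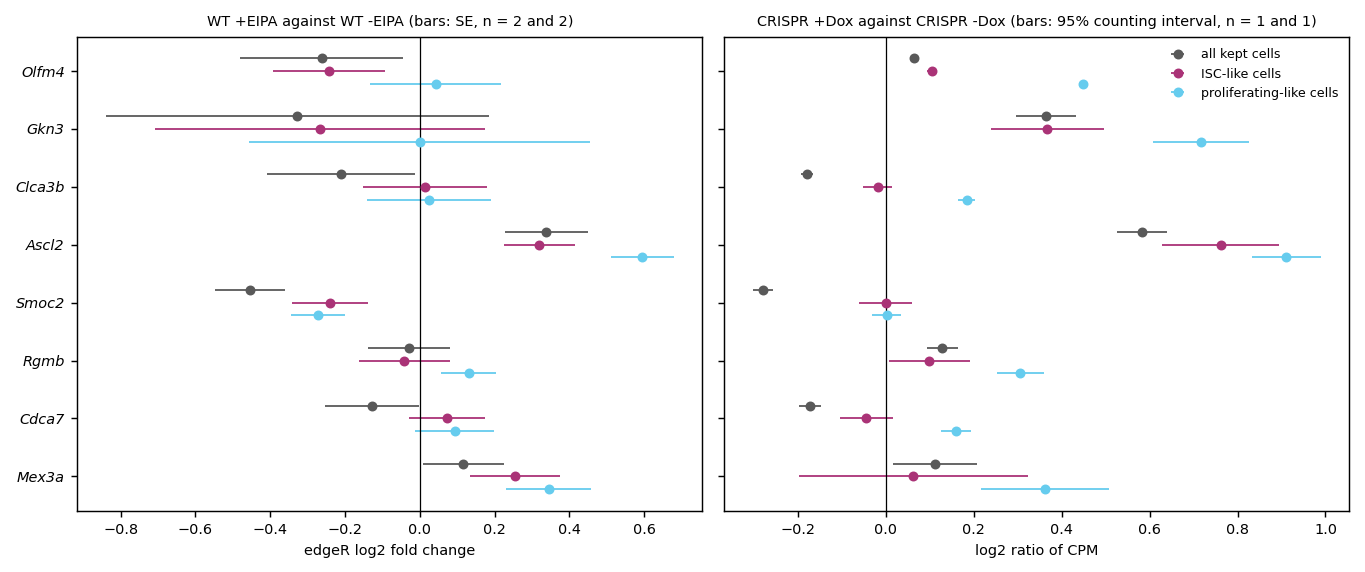
The left panel plots edgeR's log2 fold change of WT +EIPA against WT -EIPA with its SE, and the right panel the log2 ratio of CPM of CRISPR +Dox to CRISPR -Dox with its 95% counting interval, for 3 populations. Ascl2 lies right of 0 in both panels, at 0.59 in proliferating-like cells on the left and 0.91 on the right. No EIPA value passed edgeR's test without a replicate block.

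Over the 8 named classes no member was called by edgeR. The log2 fold change was above 0 in 7 of 8 classes for Ascl2 and Mex3a, 5 for Rgmb, 4 for Cdca7, 3 for Clca3b and Olfm4, and 1 for Gkn3 and Smoc2. These signs follow edgeR's scaling. In mean CPM Ascl2 was lower with EIPA in tuft-like and regenerative-like cells, and Mex3a in enterocyte-like, Goblet-like and tuft-like cells. Each was higher in its other classes. The classes share libraries, so these counts are a description. The share of genes called was 0.118% in enterocyte-like, 0.0515% in Paneth-like, 0.153% in Goblet-like, 0.0732% in EEC-like, 0.0203% in tuft-like and 0% in regenerative-like cells. Goblet-like cells had Ascl2 at 12.7 and 16.5 CPM in WT -EIPA and at 21.5 and 26.3 in WT +EIPA (0.76 ± 0.17, adjusted p = 0.284, 6.93e-04 with the block, 4.08e-06 with no filter on low counts and 0.0612 to 0.999 under the other alternatives), where 12.9% of genes were higher without overlap. In tuft-like cells, where its level was highest, Ascl2 was at 65.9 and 69.4 against 53.0 and 78.5 CPM (0.05 ± 0.20). Enterocyte-like cells had Smoc2 at 44.5 and 63.3 CPM in WT -EIPA and at 29.1 and 22.8 in WT +EIPA (-0.92 ± 0.19, adjusted p = 0.104). By DESeq2 that p was 0.00307, with the block 0.00735, with no filter on low counts 3.95e-06 without WT -EIPA replicate 1 0.00898 and under the others 0.0989 to 0.718, and 42.5% of genes were lower without overlap in enterocyte-like cells. With that replicate left out WT -EIPA is 1 library, assumed to vary like WT +EIPA. Within the same cells the enterocyte markers summed to 37317 and 24392 CPM in WT -EIPA and to 54431 and 55210 CPM in WT +EIPA, and their part in the result was not tested. The class holds 4 clusters with mean Smoc2 levels from 21.2 to 63.4 CPM, and in each of the 4 both WT +EIPA libraries were below both WT -EIPA libraries. The difference between classes was not tested.

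A list of 21 other crypt-base genes was read from the same fits, and its members Lgr5, Axin2, Tnfrsf19, Slc12a2, Prom1, Igfbp4, Soat1, Lrig1, Scn2b, Slc14a1, Fstl1 and Cyp2e1 had also served to name ISC-like cells. No call was made by edgeR among the 21 tested over all kept cells, the 19 tested in ISC-like cells or the 19 in proliferating-like cells. Fstl1 and Cyp2e1 were too low to be tested in the last 2. At an unadjusted p under 0.05 there were 2, 1 and 3 of them, against 10.1%, 3.47% and 4.75% of all genes. Their median log2 fold change was -0.06, -0.01 and 0.12, beside -0.003, 0.001 and 0.0007 over all genes tested. Lgr5 was at 59.1 and 58.3 CPM in WT -EIPA against 51.6 and 47.5 in WT +EIPA over all kept cells (-0.16 ± 0.07, adjusted p = 0.542). In ISC-like cells Lgr5 was at -0.18 ± 0.11 (adjusted p = 1.00, 0.0264 with the block and 0.846 to 1.00 under the other alternatives), and in proliferating-like cells at 0.04 ± 0.09.

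Of the 21, Pdgfa, a ligand of the PDGF receptor, had the log2 fold change farthest below 0 over all kept cells, -0.68 ± 0.08 (adjusted p = 0.239), and in proliferating-like cells, -0.73 ± 0.08 (adjusted p = 0.175), and in ISC-like cells it was at -0.57 ± 0.16. By DESeq2 the adjusted p of Pdgfa was 2.09e-10 over all kept cells and 1.21e-11 in proliferating-like cells. Both passed also with no filter and with the block, and under the other alternatives it ran from 0.0821 to 0.781 and from 0.153 to 0.631. Next over all kept cells came Fstl1 (-0.62 ± 0.65), with Cyp2e1 (0.67 ± 0.48) and Nkd1 (0.61 ± 0.61) at the other end. In ISC-like cells the ends were Tnfrsf19 (-1.15 ± 0.97), then Pdgfa, against Igfbp4 (0.39 ± 0.42) and Axin2 (0.17 ± 0.12). In proliferating-like cells they were Pdgfa and Prom1 (-0.10 ± 0.08) against Igfbp4 (0.54 ± 0.44) and Tnfrsf19 (0.51 ± 1.09).

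The CRISPR libraries, 1 per group, allow no test, and their intervals cover counting error only. Sorting for GFP and Dox itself also set CRISPR +Dox apart from CRISPR -Dox, as did a higher median depth (17020 against 11952 UMIs a cell), and these cannot be told apart from the edit.

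Over all kept, ISC-like and proliferating-like cells, Ascl2 was the member with the log2 ratio farthest from 0. It was at 17.7 CPM in CRISPR -Dox and 26.6 in CRISPR +Dox over all kept cells (log2 ratio 0.58, 95% counting interval 0.53 to 0.64). In ISC-like cells it was at 33.5 and 56.8 CPM (0.76, 0.63 to 0.90), and in proliferating-like cells at 23.9 and 44.95 CPM (0.91, 0.83 to 0.99). Gkn3 was at 12.9 and 16.6 CPM over all kept cells (0.36), at 41.0 and 52.9 in ISC-like cells (0.37) and at 13.2 and 21.7 in proliferating-like cells (0.72). Paneth markers summed to 1419 CPM without and 3929 with Dox in ISC-like cells and to 1081 and 2742 in proliferating-like cells, and enterocyte markers to 1496 and 1990 and to 1869 and 2419 CPM. Their part in the result was not tested. Ascl2 and Gkn3 in proliferating-like cells and Ascl2 in ISC-like cells were 1.5-fold or more higher, as were 1.45% and 1.33% of genes at 5 CPM or more in these classes.

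Smoc2 was at 143 CPM without and 118 with Dox over all kept cells (-0.28, -0.30 to -0.26). Enterocyte markers summed to 10165 and 21486 CPM in the same cells, Paneth markers to 6762 and 22746 and Goblet markers to 4135 and 9649. The part of these markers in the result was not tested. Smoc2 was at near equal levels in ISC-like (211.8 and 211.8 CPM), proliferating-like (187.1 and 187.4) and Paneth-like cells (107.4 and 107.2). It was lower with Dox in enterocyte-like (57.4 and 28.8 CPM) and regenerative-like cells (85.0 and 29.9), and higher in tuft-like cells (103 and 196), the last a class of 74 and 58 cells. The share of all genes lower with Dox was not computed for these classes. Within enterocyte-like cells the enterocyte markers summed to 37169 CPM without and 63960 with Dox, and their part in the result was not tested. The 6 regenerative markers summed to 174 CPM without and 878 with Dox in the regenerative-like cells, against 1021 to 2833 in WT, so that class was weakly marked in CRISPR -Dox. Clca3b (-0.18) and Cdca7 (-0.17) were also lower over all kept cells, where 60.8% of genes were, and Olfm4 (0.06), Rgmb (0.13) and Mex3a (0.11) were higher. In ISC-like cells 3 of 8 members, Clca3b, Cdca7 and Smoc2, had a log2 ratio below 0, against 64.6% of genes, but the counting intervals of all 3 include 0, and in proliferating-like cells 0 of 8, against 63.1%. Olfm4 was at 2254 and 3076 CPM in proliferating-like cells (0.45) and Mex3a at 8.55 and 10.99 CPM (0.36). The ISC-like counts depend on the clusters. Without the Harmony correction 7 of 8 members were lower with Dox there, all but Ascl2 (0.34), with 2876 and 2509 cells in the class in place of 2090 and 1145. The class was then made of a cluster with 16.2% of CRISPR -Dox and 0.521% of CRISPR +Dox cells, and another with 0.142% and 20.2%. The libraries were thus compared over different clusters, and the direction is not a like-for-like check.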

How the data were processed

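The UMI count matrices deposited by the authors were used, 1 per library. Per the labels and the study's methods, libraries were 10x 3′ libraries, and Cell Ranger 6.1.2 aligned reads to mm10 (GRCm38) and counted UMIs. The genes, lists and comparisons were chosen with earlier results of these data known.

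A cell was kept if it had 1000 or more genes detected and less than 20% of its UMIs from mitochondrial genes. Counts were clustered (scanpy 1.11.5, 3000 variable genes without the members, 45 components, Harmony correction between libraries, 20 neighbours, leidenalg 0.10.2 at resolution 0.8). The rule that names clusters from marker lists was set after the clusters were seen. It asked for a marker among the 20 leading genes and 3 markers raised at 10 CPM or more. Doublets stayed in. Scrublet's own threshold called 0% of cells in 2 libraries and 8.42 to 15.0% in the others, so an alternative removed the highest 10% of scores.

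UMIs were summed per library and class. WT +EIPA and WT -EIPA were compared by edgeR 4.0.16 (R 4.3.3, quasi-likelihood, TMM, low-count filter, Benjamini-Hochberg adjustment over all genes, threshold 0.05) and by DESeq2 1.42.0 as an alternative. The study tested single cells, which are not replicates, so its test was not used. The SE is the log2 fold change over the root of its F. Same-numbered WT libraries came from 1 experiment per the study's records, and their deviations from the group means correlated at 0.690 over all kept cells, 0.632 in ISC-like and 0.723 in proliferating-like cells. WT replicates were separate preparations of organoids. CRISPR values carry exact 95% counting intervals, which cover counting error only, as do shares of cells. The procedure was tested on simulated data.

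Genes named were the 8 members, Lgr5, Mki67 and Top2a where cells were split, the 2 companion genes farthest each way, and the 2 genes most like each member among those at a mean of 5 CPM or more. Tests of Ascl2 and Smoc2 in other classes were added after the data were seen. The gene targeted by the guide is not reported here.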

Additional observations from a re-analysis of the deposited data

How the results depend on the processing

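Of 519 recomputed log2 fold changes of members and named companions in the 3 populations, 446 kept their sign and side of the threshold, 21 passed it and 52 changed sign. The cause was not tested. Beside 0 by edgeR, the members called were 1 by DESeq2 and 1 with the replicate block over all kept cells, 4 with the block in ISC-like cells, and 1 by DESeq2, 1 with no filter on low counts and 2 with the block in proliferating-like cells. Of the companions, 1 was called by DESeq2, 1 with no filter and 1 with the block over all kept cells, 1 with no filter and 4 with the block in ISC-like cells, and 1, 1 and 4 in proliferating-like cells. Over all genes edgeR called 0 in each population, against 581, 21 and 106 by DESeq2, 839, 726 and 618 with the block, and 198, 139 and 113 with no filter. Without WT -EIPA replicate 1 it called 137 over all kept cells. Leaving out 1 library changed no count of called members in these 3 populations. In enterocyte-like cells Smoc2 was called without WT -EIPA replicate 1, which leaves that group 1 library, assumed to vary like the other group.

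Scaling by library size alone moved the median of all genes by at most 0.086 in these populations, and by -0.169 in enterocyte-like cells. It gave -0.056 for Clca3b in ISC-like cells, -0.020 for Olfm4, -0.040 for Clca3b and -0.028 for Lgr5 in proliferating-like cells, and -0.025 for Ascl2 and -0.034 for Smoc2 in tuft-like cells. Without Harmony, ISC-like cells gave -0.43 for Clca3b, -0.30 for Ascl2, -0.44 for Cdca7, -0.059 for Mex3a, -0.22 for Axin2 and -0.031 for Igfbp4, and proliferating-like cells gave 0.18 for Gkn3 and 0.0035 for Prom1. At resolution 1.2, Clca3b was -0.018 and Cdca7 -0.0031 in ISC-like cells. At resolution 0.5, which left no ISC-like cluster, Olfm4 was -0.085, Lgr5 -0.043 and Tnfrsf19 -0.34 in proliferating-like cells. In cells with an Lgr5 UMI, in place of ISC-like cells, Clca3b was -0.041, Rgmb 0.045 and Cdca7 -0.021. With the highest doublet scores removed, Clca3b was -0.0031 in ISC-like and Gkn3 0.0059 in proliferating-like cells. Gkn3 there was 0.021 with the block and 7.4e-05 under strict limits on cells, and Ascl2 in regenerative-like cells was 0.016 with the block.

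With 1 library left out, over all kept cells Olfm4 ran from -0.54 to 0.077, Gkn3 from -0.93 to 0.38, Clca3b from -0.45 to 0.066, Rgmb from -0.16 to 0.11, Cdca7 from -0.27 to 0.029 and Fstl1 from -1.17 to 0.37. In ISC-like cells Gkn3 ran from -1.002 to 0.25, Clca3b from -0.18 to 0.19, Rgmb from -0.17 to 0.078, Cdca7 from -0.0080 to 0.15, Tnfrsf19 from -2.77 to 0.88 and Igfbp4 from -0.075 to 1.248. In proliferating-like cells Olfm4 ran from -0.18 to 0.31, Gkn3 from -0.54 to 0.66, Clca3b from -0.17 to 0.25, Cdca7 from -0.011 to 0.21, Lgr5 from -0.042 to 0.12 and Tnfrsf19 from -0.41 to 3.61. Smoc2 ran from -0.20 to 0.012 in Paneth-like, -0.12 to 0.27 in tuft-like and -1.31 to 0.52 in regenerative-like cells, and Ascl2 from -0.28 to 0.29 in tuft-like and -0.42 to 0.95 in regenerative-like cells. With Dox, 7 members were lower in ISC-like cells without Harmony and 1 at resolution 1.2, and 1 in proliferating-like cells without Harmony. Without Harmony the ISC-like cells of CRISPR -Dox and CRISPR +Dox fell mostly in different clusters. With cells thinned, the ratio of cycling to other Lgr5-positive cells was 1.03 for Rgmb and 1.05 for Mex3a, in place of 0.963 and 0.901.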
